A study of Mus musculus with 6 samples.

Results

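The DNA damage checkpoint genes described here are the kinase genes Atr, Chek1, Atm and Chek2 and the partner genes Atrip, Topbp1, Clspn, Rad9a, Hus1 and Rad17. They were chosen by name, and a gene was measured where the platform's annotation gives a probe set exactly 1 symbol. Of the 10 genes, 9 were measured, each by 1 probe set, among 11271 genes tested and 17372 genes with a symbol. All 9 passed the filter on low values, a mean log2 value above 7.26. Atrip was not analysed here. Transcripts of bone marrow pre-B cells, the stage of light chain gene rearrangement, had been measured on Affymetrix mouse arrays. The cells were sorted as B220+IgM-CD43- from 9-month-old mice, with 3 arrays from control mice and 3 from Vav-Cre Mef2cfl/fl mice. Vav-Cre deletes the floxed gene in blood-forming cells, here Mef2c, the gene of a transcription factor of the MADS-box family. Per the methods, controls were Mef2cfl/fl, Mef2cfl/+ or Vav-Cre Mef2cfl/+ mice, so a control may carry 2 floxed alleles without Cre, or Cre with 1 floxed allele, where 1 copy of Mef2c may be deleted. Which control array has which genotype is not given in the sources used here.

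The checkpoint halts the cell cycle when DNA is damaged or replication stalls. In the S-phase branch, ATR is recruited with its partner ATRIP to single-stranded DNA at stalled forks, is activated by TOPBP1, and phosphorylates the effector kinase CHK1 (Chek1) with the help of the mediator claspin (Clspn). RAD17 loads the clamp of RAD9, HUS1 and RAD1 that brings TOPBP1 to the site. In the break branch, ATM is activated at double strand breaks, among them those made by the RAG recombinase in developing lymphocytes, and phosphorylates the effector kinase CHK2 (Chek2). Both effectors restrain the CDC25 phosphatases that drive cell division.

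All values are log2 of the deposited value, and a difference is the mean of the Mef2c-deficient arrays minus that of the control arrays. The base of the deposited scale is not settled. If it is e and not 2, each difference is 0.69 times the printed value with the same sign and p-value. As a check of the cell label, 13 pre-B cell markers were measured, and 11 of them had lower means in the Mef2c-deficient arrays. The brightest, Cd79b, of the B-cell receptor, was at 18.76 to 19.22 in the control and 18.20 to 19.06 in the Mef2c-deficient arrays. The next, Cd24a, a surface antigen of immature B cells, was at 18.89 to 19.04 and 18.12 to 18.74, with no overlap. Mef2c itself was not analysed here. In these bulk samples, fewer cells of a type and less RNA per cell cannot be told apart. The samples are called independent in the study, but no animals are named. The p-values therefore set a difference only against the spread among these samples, and the small number of arrays limits their precision. The fit pools the spread of both groups. The Mef2c-deficient arrays were less alike (correlations of 0.868 to 0.943) than the control arrays (0.957 to 0.986).

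Promoters are shown for the 4 kinase genes and for Clspn and Topbp1, because several of these genes had lower values together and the letters of E2F sites differ among them. The windows of Hus1 and Rad17 are not shown and hold no E2F form. Hus1 had a more negative difference (-1.55) than Topbp1 (-1.22), so the windows shown are not those of the lowest genes. E2F factors switch on genes needed for S phase. Each window holds 250 bases before and 50 after the start site (RefSeq, GRCm38.p6), written along the gene's strand. Capitals mark the letters TTTCGCGC, TTTGGCGC, TTTCCCGC or TTTGGCGG, as forms of the E2F site, and TTTGAA or TTCGAA, as forms of the CHR element of cell-cycle genes, on either strand. No marked match overlaps another.
Chek1 (chr9:36726609-36726908, minus strand): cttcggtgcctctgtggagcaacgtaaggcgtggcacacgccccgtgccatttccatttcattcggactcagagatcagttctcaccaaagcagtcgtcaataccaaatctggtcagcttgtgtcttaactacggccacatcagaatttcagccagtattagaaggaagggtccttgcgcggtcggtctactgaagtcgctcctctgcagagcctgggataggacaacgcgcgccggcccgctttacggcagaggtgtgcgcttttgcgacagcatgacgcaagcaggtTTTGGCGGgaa
Chek2 (chr5:110839733-110840032, plus strand): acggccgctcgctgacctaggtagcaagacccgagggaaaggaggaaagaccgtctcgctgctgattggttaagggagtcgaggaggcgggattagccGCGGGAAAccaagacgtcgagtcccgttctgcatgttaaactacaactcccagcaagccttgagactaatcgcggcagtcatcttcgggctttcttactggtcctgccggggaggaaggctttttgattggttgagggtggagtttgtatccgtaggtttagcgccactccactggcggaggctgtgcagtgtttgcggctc
Clspn (chr4:126556730-126557029, plus strand): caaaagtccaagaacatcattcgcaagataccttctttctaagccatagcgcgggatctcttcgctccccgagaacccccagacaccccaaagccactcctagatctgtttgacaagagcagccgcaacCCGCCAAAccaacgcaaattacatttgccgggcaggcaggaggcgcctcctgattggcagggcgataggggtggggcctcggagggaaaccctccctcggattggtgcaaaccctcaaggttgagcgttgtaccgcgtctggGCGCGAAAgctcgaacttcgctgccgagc
Topbp1 (chr9:103305077-103305376, plus strand): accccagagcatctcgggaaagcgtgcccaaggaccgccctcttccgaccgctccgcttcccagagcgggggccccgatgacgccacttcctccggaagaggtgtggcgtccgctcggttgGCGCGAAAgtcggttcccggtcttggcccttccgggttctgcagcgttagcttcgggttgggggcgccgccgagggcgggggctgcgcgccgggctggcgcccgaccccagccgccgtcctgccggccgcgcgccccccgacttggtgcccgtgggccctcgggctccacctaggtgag
Atr (chr9:95857347-95857646, plus strand): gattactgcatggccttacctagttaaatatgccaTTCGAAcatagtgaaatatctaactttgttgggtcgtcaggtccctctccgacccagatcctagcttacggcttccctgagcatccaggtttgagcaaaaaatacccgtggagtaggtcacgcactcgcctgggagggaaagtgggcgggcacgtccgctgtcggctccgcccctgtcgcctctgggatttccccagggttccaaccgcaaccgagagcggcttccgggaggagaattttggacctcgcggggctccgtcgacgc
Atm (chr9:53536622-53536921, minus strand): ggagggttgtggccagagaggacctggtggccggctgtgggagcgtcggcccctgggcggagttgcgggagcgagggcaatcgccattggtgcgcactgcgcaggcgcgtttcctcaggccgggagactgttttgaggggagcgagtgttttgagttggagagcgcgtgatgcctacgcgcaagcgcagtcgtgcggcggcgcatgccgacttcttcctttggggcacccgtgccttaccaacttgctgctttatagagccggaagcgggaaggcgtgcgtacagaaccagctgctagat
Of the 9 genes measured, 8 had a window. At least 1 of the 4 E2F forms was found in 4 of the 8, those of Chek1, Chek2, Clspn and Topbp1, and in 2.37% of all 32851 windows of the same length. In Chek1 the match lies at 40 to 47 bases after the start site, in Chek2 at -152 to -145, in Topbp1 at -129 to -122, and in Clspn at -121 to -114 and at 22 to 29. A CHR form was found in 2 of the 8, Atr and Hus1, against 19.2% of all windows, and the CCAAT box in Atm, Chek2 and Clspn, against 37.4%. CTA followed by TAG with 4 bases between, a form of the MEF2 site, was in 0 of the 8 windows and in 3.69% of all windows. At so low a share, its absence from so few windows says little. Sites outside the windows were not searched, and the study reports MEF2C binding at distal regions too. The shares over all windows are not limited to the genes tested here or to windows of like base content, and enrichment was not tested. These matches are a description of letters and not of binding.

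The first comparison asked how expression of the 4 kinase genes depended on Mef2c. Chek1 had values of 10.16, 10.71 and 10.11 in control replicates 1 to 3, and of 7.80, 6.76 and 8.35 in Mef2c-deficient replicates 1 to 3. Each Mef2c-deficient array lay below each control array by more than the range within either group. The value of 6.76 is below the filter value of 7.26, and no detection calls were used, so the size of the difference rests partly on dim readings. The means were 10.33 ± 0.33 and 7.64 ± 0.80 (SD, n = 3 each), a difference of -2.69 (SE 0.44, 95% interval -3.73 to -1.65), which is 6.45-fold as deposited and 3.64-fold on the base of e. The limma p-value was 0.000395 and the limma adjusted p 0.0769. By this difference Chek1 had rank 35 of 11271 genes, counted from the most negative.

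Chek2, the effector of the break branch, had 9.86, 10.16 and 10.39 in the control arrays and 9.39, 8.33 and 9.18 in the Mef2c-deficient arrays. The groups did not overlap, with Mef2c-deficient replicate 2 the lowest, as for Chek1. The difference was -1.17 (SE 0.36, 95% interval -2.02 to -0.33), or 2.26-fold as deposited, with a limma p-value of 0.0130 and a limma adjusted p of 0.130. Its limma p-value was above 0.05, at 0.0532 and 0.102, after centring each array on the kept probe sets (difference -0.88) or on the genes tested (difference -0.71).

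Atr, the apical kinase of the S-phase branch, had 10.22, 10.37 and 10.32 in the control arrays and 9.02, 10.62 and 7.15 in the Mef2c-deficient arrays. The control values were tightly grouped (SD 0.08) and the Mef2c-deficient values widely spread (SD 1.74), with replicate 2 above and replicate 3 far below all controls. The value in replicate 3, 7.15, is below the filter value of 7.26. The difference of -1.38 (SE 0.78, 95% interval -3.18 to 0.43) did not pass (limma adjusted p = 0.267). It was -2.22 without Mef2c-deficient replicate 2 (limma adjusted p = 0.114) and -0.48 without replicate 3 (limma adjusted p = 0.474), so single arrays set its size.

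Atm, the apical kinase of the break branch, had 11.37, 10.89 and 11.58 in the control arrays and 10.41, 11.34 and 10.60 in the Mef2c-deficient arrays. The groups overlapped through Mef2c-deficient replicate 2, which lay within the control range. The difference was -0.49 (SE 0.36, 95% interval -1.33 to 0.34, limma adjusted p = 0.358), close to the median of -0.36 over all genes tested. It shrank to -0.03 to -0.20 under the other 4 scalings of the arrays.

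**Figure D1:**
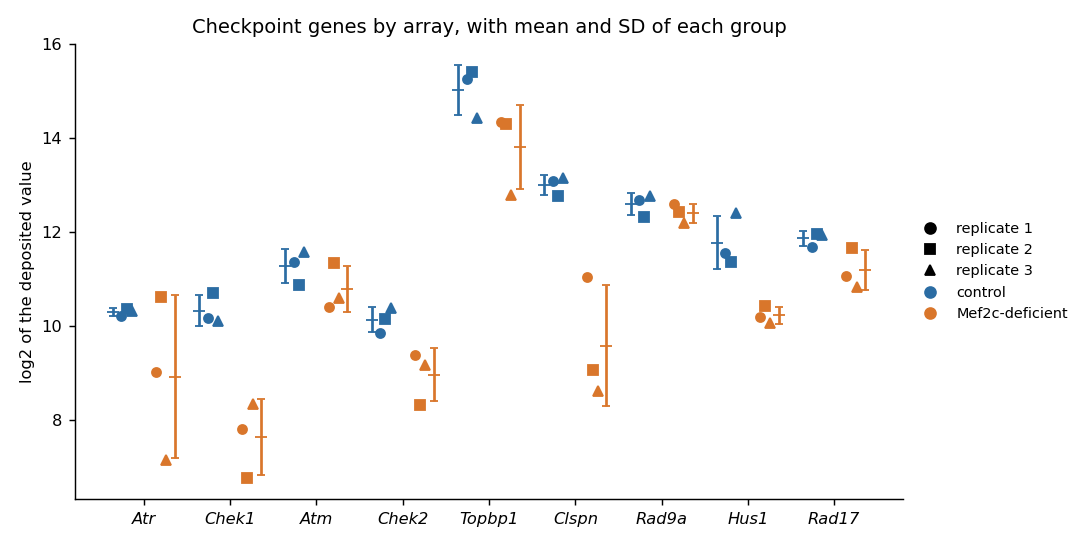
Values of the 9 genes (horizontal axis) on the log2 scale (vertical axis) in each array, with controls in blue and Mef2c-deficient arrays in orange. Symbols tell the replicate numbers apart, and bars give the mean and SD of each group. Levels of different genes are not comparable. Chek1 lies at 10.11 to 10.71 in controls and 6.76 to 8.35 in Mef2c-deficient arrays, while the groups overlap for Atr, Atm and Rad9a.

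The second comparison set the S-phase branch against the break branch. In each array the control-centred value (the log2 value minus the gene's control mean) of a break branch gene was subtracted from that of its S-phase counterpart, for 2 pairs. Chek1 minus Chek2 was 0.11, 0.36 and -0.47 in the control arrays and -1.77, -1.75 and -1.02 in the Mef2c-deficient arrays. The groups did not overlap, and Chek1 lay further below its control mean than Chek2 in each Mef2c-deficient array. The difference of -1.52 had an exact permutation p of 0.10 (two-sided, n = 3 each), the smallest that 3 against 3 arrays allow, and 0.20 after Benjamini-Hochberg adjustment over the 2 pairs. Over the alternatives run, all negative, it ranged from -1.05 on the base of e to -1.77 with array weights.

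Atr minus Atm was -0.18, 0.46 and -0.28 in the control arrays and -0.41, 0.25 and -2.48 in the Mef2c-deficient arrays. Here the groups overlapped, and Mef2c-deficient replicate 3 alone lay far from the rest. The difference was -0.88 (exact permutation p = 0.40, also after adjustment over the 2 pairs, n = 3 each). It was -0.08 without Mef2c-deficient replicate 3, -1.45 without replicate 2, and -0.31 with array weights.

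The mean of both genes of a branch, given with no test, was -1.90, -1.63 and -2.57 in Mef2c-deficient replicates 1 to 3 for the S-phase branch and -0.81, -0.87 and -0.82 for the break branch. The break branch mean varied little between arrays although its genes differed in their order of arrays: Chek2 was lowest in replicate 2, where Atm lay at its control mean. Within the S-phase branch, too, the 2 genes parted in replicate 2, with Chek1 at -3.56 and Atr at 0.31 relative to their control means. In that array the apical kinases Atr and Atm thus lay near their control levels and the effectors Chek1 and Chek2 at their lowest.

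**Figure D2:**
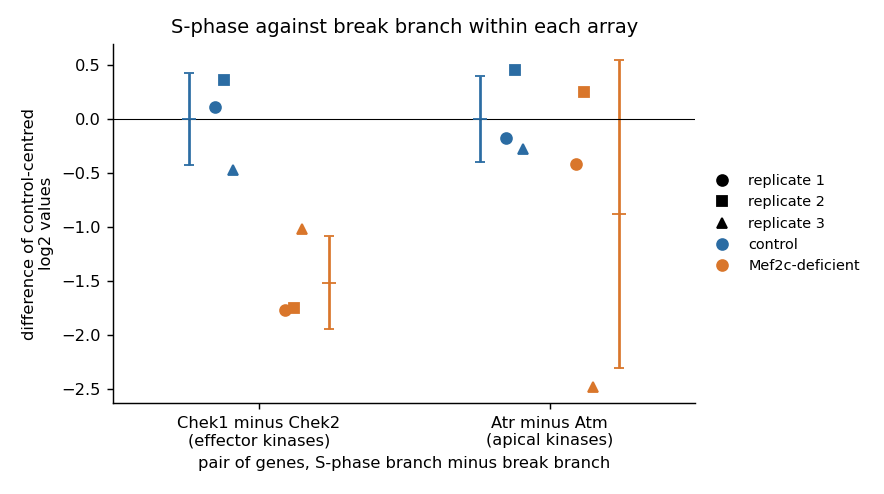
Difference of control-centred log2 values (vertical axis) between the effector kinase genes, Chek1 minus Chek2, and the apical kinase genes, Atr minus Atm (horizontal axis), in each array, with controls in blue and Mef2c-deficient arrays in orange. Symbols tell the replicate numbers apart, and bars give mean and SD. The effector pair lies at -1.77 to -1.02 in Mef2c-deficient arrays and does not overlap the controls, while the apical pair overlaps and includes 1 array at -2.48.

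Among the activators and mediators, Clspn had the most negative difference of the 9 genes. It had 13.08, 12.78 and 13.16 in the control arrays and 11.05, 9.08 and 8.63 in the Mef2c-deficient arrays. Each Mef2c-deficient array lay well below all controls, and the spread rose from an SD of 0.20 to 1.29. The difference was -3.42 (SE 0.60, 95% interval -4.83 to -2.01), 10.7-fold as deposited and 5.18-fold if the base is e. It had a limma p-value of 0.000603 and a limma adjusted p of 0.0769. It had rank 6 of 11271 genes, counted from the most negative. Topbp1, whose product activates ATR, had 15.26, 15.41 and 14.43 in the control arrays and 14.34, 14.31 and 12.79 in the Mef2c-deficient arrays. The groups did not overlap, but control replicate 3 lay only just above the nearest Mef2c-deficient arrays. The difference was -1.22 (SE 0.50), with a limma p-value of 0.0437 and a limma adjusted p of 0.180. Without Mef2c-deficient replicate 3 it was -0.71, with a limma p-value of 0.0941. The limma p-value was also above 0.05 without control replicate 1 (0.118) or control replicate 2 (0.132) and under the 4 other scalings (0.109 to 0.209).

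Among the clamp and loader genes, Hus1 had the most negative difference and Rad9a the smallest. Hus1, a subunit of the ring-shaped clamp, had 11.57, 11.37 and 12.41 in the control arrays and 10.19, 10.43 and 10.07 in the Mef2c-deficient arrays. The 3 Mef2c-deficient arrays lay close together (SD 0.19), below all controls. The difference was -1.55 (SE 0.35, 95% interval -2.37 to -0.73), with a limma p-value of 0.00264 and a limma adjusted p of 0.0950. Rad9a, another subunit of that clamp, had 12.69, 12.33 and 12.78 in the control arrays and 12.60, 12.42 and 12.19 in the Mef2c-deficient arrays. The groups overlapped, and the difference was -0.19 (SE 0.28, 95% interval -0.86 to 0.47, limma adjusted p = 0.623). It turned positive, at 0.10 to 0.36, under the 4 other scalings. Rad17, of the clamp loader, had 11.69, 11.97 and 11.94 in the control arrays and 11.07, 11.66 and 10.84 in the Mef2c-deficient arrays. Mef2c-deficient replicate 2 lay just under the lowest control, and the difference was -0.68 (SE 0.32, 95% interval -1.41 to 0.06, limma adjusted p = 0.210). It shrank to -0.18 to -0.39 under the 4 other scalings. Without Mef2c-deficient replicate 2 it was -0.91, with a limma p-value of 0.0218.

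**Figure D3:**
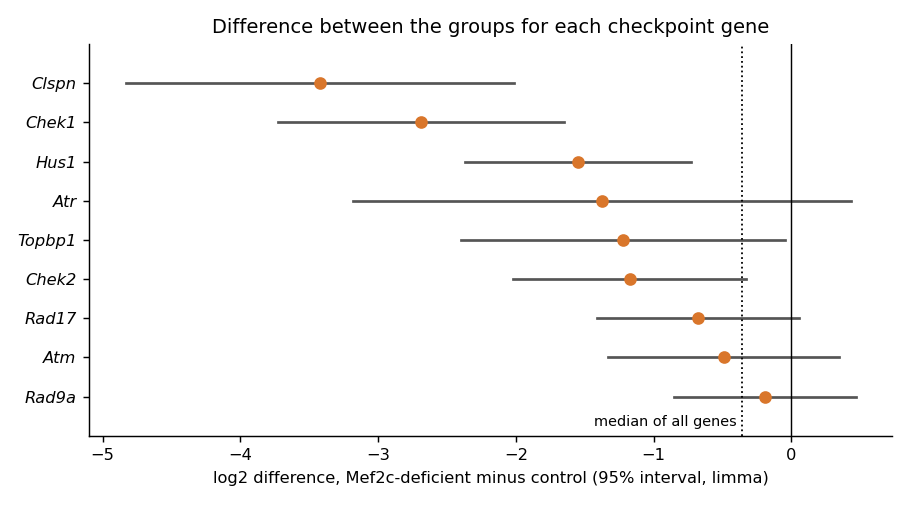
Log2 difference, Mef2c-deficient minus control (horizontal axis), of the 9 genes (vertical axis) with its 95% interval from limma. The dotted line is the median of -0.36 over all genes tested, and the intervals of Clspn, Chek1 and Hus1 lie wholly below it.

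At a limma adjusted p under 0.05, 0 of the 9 genes passed, against 0.0177% of all genes tested as lower (2 genes) and 0 as higher. At an unadjusted limma p under 0.05, 5 of the 9 were lower, namely Chek1, Clspn, Hus1, Chek2 and Topbp1, and 0 were higher, where 20.9% of all genes were lower and 5.32% higher. All 5 also had at least a 2-fold lower value as deposited, the thresholds of the study, beside 14.7% of all genes, and 0 were higher, beside 2.64%. By size alone 6 of the 9 were at least 2-fold lower, these 5 and Atr, beside 18.1%. Chek1, Clspn and Hus1 were left at these thresholds on the base of e. Chek1 and Chek2 were picked from these arrays in the study, so their direction is not independent evidence. In 6 of the 9 genes all Mef2c-deficient arrays lay below all controls, beside 27.1% of all genes, and in 0 above, beside 10.6%. All 9 had lower means, beside 62.3% of all genes, and their median difference was -1.22 against -0.36 over all genes. That median of the 9 was -0.71 without Mef2c-deficient replicate 3 and -0.76 after centring on the genes tested. With the filter at the 60th percentile, the median over all genes was -0.54, and 24.9% were lower at an unadjusted limma p under 0.05. The 9 genes kept their median of -1.22 and their count of 5 there.

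The scaling of the arrays moved all genes. The median over all genes tested was -0.10 when the log2 values were quantile normalized again, -0.04 after cyclic loess, -0.07 after centring on the kept probe sets and 0.10 after centring on the genes tested. Chek1, Clspn and Hus1 had a limma p-value under 0.05 under each of these 4 scalings, with differences of -2.23 to -2.66, -2.94 to -3.13 and -1.09 to -1.26. The share of all genes lower at an unadjusted p under 0.05 was then 11.1%, 10.2%, 10.7% and 6.48%, in the order above, and 4, 4, 3 and 3 of the 9 genes were lower. Relative to the median of all genes on the deposited scale, the difference was -2.33 for Chek1, -0.82 for Chek2, -1.02 for Atr and -0.14 for Atm.

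The 3 Mef2c-deficient arrays differed in which checkpoint genes were low. In replicate 1, 8 of the 9 genes lay below every control array, beside 52.9% of all genes. In replicate 2 this held for 6 genes, beside 45.6%, and in replicate 3 for all 9, beside 47.5%. In replicate 2 the exceptions were Atr, Atm and Rad9a, and Rad17 lay 0.21 below its control mean, whereas Chek1 and Chek2 had their lowest values of all arrays there. Replicate 3 held the lowest values of Atr, Topbp1, Clspn, Hus1, Rad17 and Rad9a, and replicate 1 that of Atm.

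Other transcripts differed between the same arrays. A list of 22 genes of proliferating cells had median control-centred values of -1.29, -2.27 and -1.32 in Mef2c-deficient replicates 1 to 3, so that replicate 2 was the lowest for it as for Chek1 and Chek2. Chek1 lay below this list's median in each Mef2c-deficient array, at -1.23, -1.30 and -0.66 relative to it, and Chek2 above it, at 0.54, 0.46 and 0.36. Clspn lay at -0.67, -1.66 and -3.06 relative to the list, and Rad9a at 1.29, 2.09 and 0.92. This centring was added after the data were seen.

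Markers of plasmacytoid dendritic cells, which also carry B220, had higher means in 13 of 13 genes measured, with medians of 0.57, 1.11 and 3.39 in Mef2c-deficient replicates 1 to 3 and of -0.51, -0.59 and 0.92 in the controls. Their summed level, on the log2 scale, was 17.30 to 18.83 in the control and 18.80 to 20.68 in the Mef2c-deficient arrays. The brightest of them, Ly6d, was at 16.79 to 18.30 and 17.61 to 18.68, and made up most of the sum in the controls. Markers of myeloid cells and neutrophils had higher means in 11 of 11 genes, with summed levels of 15.24 to 17.60 and 15.54 to 20.45. Their medians were -0.01, -1.08 and 4.59 in Mef2c-deficient replicates 1 to 3 and -0.24, -1.14 and 1.12 in the controls, so that only replicate 3 lay above the control range. None of these markers was at 0 on any array. The pre-B cell markers had medians of -0.23, -0.77 and -1.10. T-cell markers had higher means in 8 of 8 genes, with medians of 0.60, 0.33 and 2.32. NK-cell markers did in 7 of 9 (medians -0.23, -0.06 and 0.89) and erythroid markers in 4 of 4 (0.39, 0.20 and 2.08), and replicate 3 was the highest for all 3 lists. Only 5 of the 8 T-cell, 5 of the 9 NK-cell and 2 of the 4 erythroid markers had a mean above that filter. Over all genes tested, 62.3% had lower means. Mature B-cell and plasma-cell markers had higher means in 3 of 6 genes each. The mature B-cell medians were -0.65, 1.30 and -0.62 in Mef2c-deficient replicates 1 to 3, against -0.55 to 0.41 in the controls. Only replicate 2 lay above the control range there. The plasma-cell medians were -0.08, 0.01 and -0.49. The part of other cells in the lower checkpoint values was not tested. Without Mef2c-deficient replicate 3, which had the highest plasmacytoid dendritic and myeloid levels, the difference was -3.04 for Chek1 (limma adjusted p = 0.0453), -2.94 for Clspn (limma adjusted p = 0.0501), -1.47 for Hus1 and -1.28 for Chek2. It was -0.71 for Topbp1, -0.50 for Rad17, -0.48 for Atr, -0.40 for Atm and -0.09 for Rad9a. The median of the checkpoint genes went from -1.22 to -0.71, and 159 of all genes passed an adjusted p of 0.05. Probe sets of bioB, a bacterial transcript spiked in before hybridisation, averaged 2.63, 1.54 and 1.07 above its control mean in Mef2c-deficient replicates 1 to 3.

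**Figure D4:**
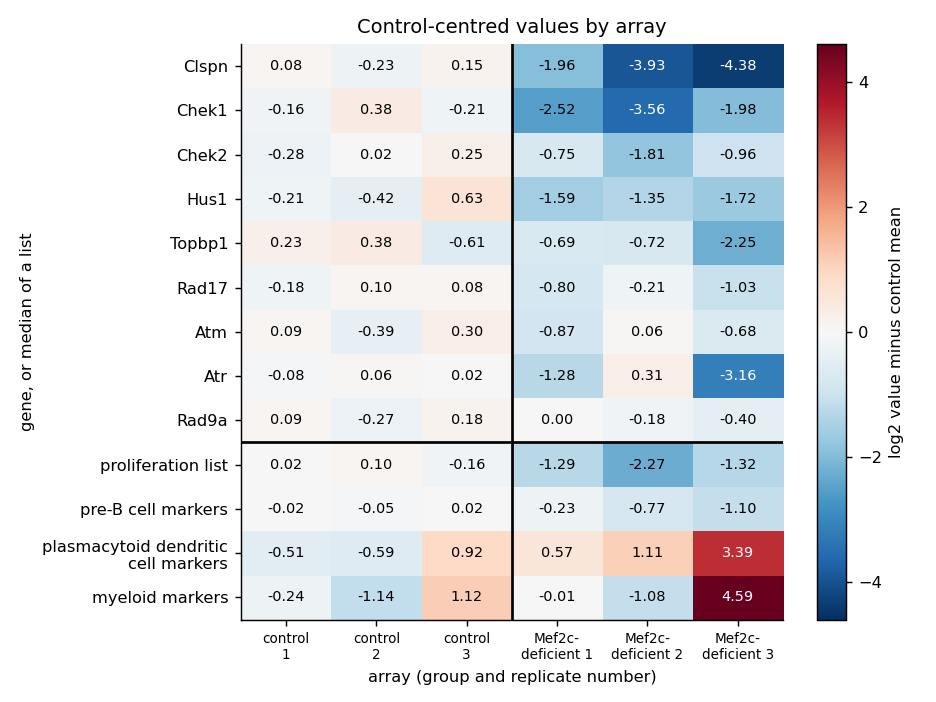
Log2 value minus the control mean (colour and number) for the 9 genes and for the median of 4 gene lists (rows) in each array (columns). In Mef2c-deficient replicate 2, Chek1 and Chek2 lie at -3.56 and -1.81 and the proliferation list at -2.27, while Atm and Atr lie at 0.06 and 0.31.

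For each kinase gene, the genes with the most similar profile were taken as those with the smallest root mean square difference of control-centred values over the 6 arrays. For Chek1 they were Sapcd2 (0.324), Aspm (0.378) and Cenph (0.388). Aspm encodes a spindle pole protein and Cenph a kinetochore subunit. For Chek2 they were Sema3g (0.153), Sdhaf3 (0.156) and Mnat1 (0.164), the last encoding an assembly factor of the CDK-activating kinase. For Atr they were Aasdh (0.117), Sclt1 (0.189) and Gtf3c2 (0.255), and for Atm Mepce (0.0596), Tlk2 (0.0963) and Bbx (0.101). Tlk2 encodes a Tousled-like kinase active in S phase. Functions are given here for only some of these genes, those with a link to the cell cycle. A shared function of the neighbours was not tested. Neighbours picked in this way share the member's order of arrays by construction, so that order is no separate result. For example, Aasdh was at -1.14, 0.19 and -2.98 in Mef2c-deficient replicates 1 to 3 and Atr at -1.28, 0.31 and -3.16. Among the 9 genes, Atm and Rad17 were nearest to each other (0.310), as were Chek2 and Hus1 (0.550) and Chek1 and Clspn (1.06).

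The third comparison covered other genes of the pathway. Of 17 tested partners of the S-phase branch, 16 had lower means (62.3% of all genes) and 12 were lower at an unadjusted limma p under 0.05, with 0 higher (20.9% of all genes lower and 5.32% higher). The median difference was -1.40, against -0.36 over all genes. Timeless, whose product protects replication forks, differed by -2.19 (SE 0.29), with values of 12.97 to 13.60 in the control and 10.94 to 11.23 in the Mef2c-deficient arrays. Rhno1, which binds the clamp, differed by -1.62 (SE 0.27), the clamp subunit gene Rad1 by -1.43 (SE 0.29) and Rpa2, of the single-stranded DNA binding complex, by -1.43 (SE 0.32). Their limma adjusted p lay between 0.0745 and 0.0934. In all 4, named for the smallest p-values of the list, the groups did not overlap. Of the 17 partners, 12 were lower with no overlap, beside 27.1% of all genes. Rad9b, a relative of Rad9a, had a mean 0.49 higher, which did not pass (limma adjusted p = 0.453).

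Of 13 tested partners of the break branch, all 13 had lower means (62.3% of all genes) and 7 were lower at an unadjusted limma p under 0.05 (20.9% of all genes), with a median difference of -1.04. Brca1 differed by -2.10 (SE 0.30), with values of 12.25, 12.03 and 11.86 in the control and 10.07, 9.56 and 10.22 in the Mef2c-deficient arrays. Rad50 and Mre11a, of the complex that senses breaks, had differences of -1.63 (SE 0.34) and -1.04 (SE 0.28), and both had groups that did not overlap. Of the 13 partners, 8 were lower with no overlap, beside 27.1% of all genes. Rif1, whose product limits resection of broken ends, had a control mean of 8.79 and a Mef2c-deficient mean of 6.93. The latter is below the filter of 7.26, so Rif1 was tested only because of its control level, and the count of 7 includes it. The count was 6 with the filter at the 60th percentile. Rad50 and Mre11a were picked from these arrays in the study, so their direction is not independent evidence. Nbn, the partner of both in the complex that activates ATM, overlapped between the groups (-0.28, limma adjusted p = 0.667), as did Mdc1, which binds phosphorylated H2AX (-0.49, limma adjusted p = 0.466). After quantile normalization 8 of the 17 S-phase partners and 3 of the 13 break partners were lower at an unadjusted p under 0.05, beside 11.1% of all genes.

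Of 16 tested checkpoint targets and cell-cycle regulators, 15 had lower means (62.3% of all genes) and 11 were lower at an unadjusted limma p under 0.05 (20.9% of all genes), with a median of -1.47. Wee1, an inhibitory kinase of the mitotic CDK that acts on the same side as the checkpoint, differed by -2.06 (SE 0.48), and Cdc25b, a phosphatase that acts on the opposite side, by -1.41 (SE 0.35). Aurkb, a mitotic kinase, differed by -2.77 (SE 0.63) and Cdk2 by -1.37 (SE 0.34). Cdkn1a, the p53 target encoding the CDK inhibitor p21, differed by -1.53 (limma adjusted p = 0.152). The mean of Cdc25c was 0.80 higher, with Mef2c-deficient replicate 1 at 17.14 and all other arrays at 10.25 to 12.84, and did not pass (limma adjusted p = 0.717).

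Of 10 tested relatives of ATM and ATR and of the complexes that assemble them, 9 had lower means (62.3% of all genes) and 5 were lower at an unadjusted limma p under 0.05 (20.9% of all genes), with a median of -0.92. Mtor, the growth-regulating relative, differed by -1.75 (SE 0.43), while Prkdc, the relative that acts in end joining, overlapped between the groups (-0.30, limma adjusted p = 0.575). The chaperone component genes Ruvbl1, Pih1d1 and Tti2 differed by -1.17 (SE 0.31), -1.16 (SE 0.34) and -0.86 (SE 0.29). Telo2, a partner of Tti2, had a mean 0.35 higher (limma adjusted p = 0.438). Cyclic loess left 1 of the 10 lower at an unadjusted p under 0.05, beside 10.2% of all genes.

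Of the 22 genes of proliferating cells, all had lower means (62.3% of all genes) and 19 were lower at an unadjusted limma p under 0.05 (20.9% of all genes), with a median of -1.60. The replicative helicase genes Mcm7 and Mcm4 differed by -1.73 (SE 0.29) and -1.51 (SE 0.26), and the spindle checkpoint genes Bub1b and Bub1 by -2.001 (SE 0.34) and -3.18 (SE 0.63). The cell cycle is among the gene categories the study picked from these arrays, so this list is not independent evidence of direction. In these 5 lists 0 genes passed a limma adjusted p of 0.05.

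**Figure D5:**
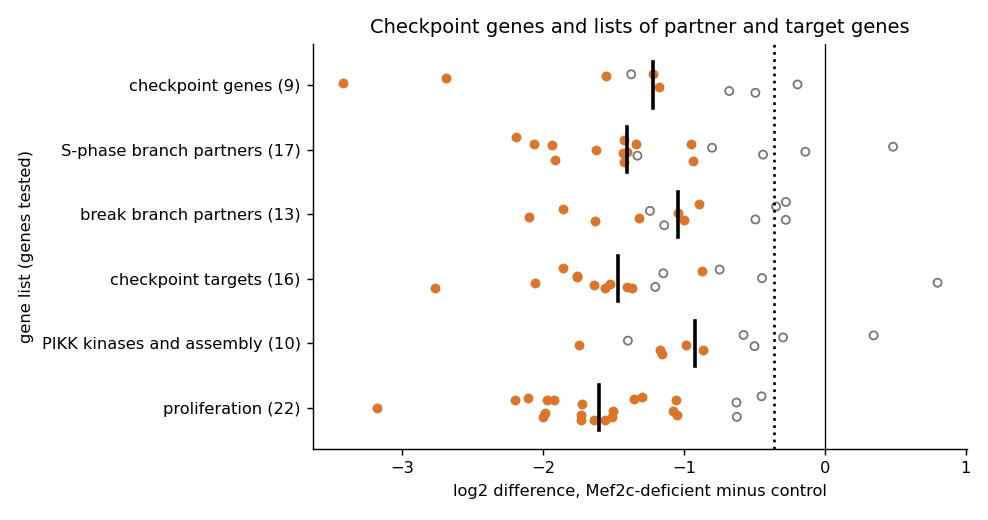
Log2 difference, Mef2c-deficient minus control (horizontal axis), of each gene in the checkpoint group and 5 lists (vertical axis, number of genes tested in parentheses). Filled points have an unadjusted limma p under 0.05, black bars are list medians and the dotted line is the median of all genes, -0.36. The proliferation list has the lowest median, -1.60, and the list of PIKK kinases (ATM, ATR and relatives) and their assembly factors the highest, -0.92.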

How the data were processed

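Pre-B cells were profiled on 3 control and 3 Mef2c-deficient arrays, and groups and replicate numbers follow the sample titles. The deposited table holds intensity values of 23913 probe sets, not on a log scale. Per the study's methods, the authors made them by robust multiarray averaging (RMA) with background adjustment and quantile normalization. The submitters' processing notes name RMA and limma. The version of each tool is not given in the sources used here. The values reached 2144602, and 2.00% exceeded the 16-bit maximum of 65535, so the base of the exponent is not settled.

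Values were log2-transformed with no offset. Names come from GEO's platform annotation, which can be old: 17689 probe sets had 1 symbol and entered, 524 had several, and 5699, given no symbol there, stay unnamed here. AFFX controls (25, some of them within these classes) did not enter. Probe sets with a mean log2 above the 40th percentile (7.26) were kept, and the probe set of highest mean stood for its gene, which left 11271 genes. No detection calls were used here. The study's methods describe excluding probe sets by their detection calls. Whether the deposited table had been cut in this way is not given in the sources used here. The 2 groups were compared by lmFit and eBayes of limma 3.58.1 under R 4.3.3, with no covariate, two-sided, with Benjamini-Hochberg adjustment over all genes and a threshold of 0.05. A fit over all 17689 probe sets without the filter also gave 5 of the 9 checkpoint genes at an unadjusted p under 0.05. Alternatives covered filters, scalings, an offset of 16, probe set rules, variance models, array weights, the methods' t-test, the replicate number as a block, and leaving out each array.

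Members, lists and motifs were chosen with earlier results of these data known. Genes named are all members, the 4 of each list with the smallest p-value, the 3 most similar profiles of each kinase gene, and the 2 brightest markers of a cell type. Of these markers, only those of pre-B cells and Ly6d are printed. Cdkn1a, Prkdc, Nbn, Mdc1, Cdc25c, Rad9b and Telo2 were named after seeing their values. Across genes, arrays that share a replicate number had like deviations from their group means, with correlations of 0.348, 0.226 and 0.373 for numbers 1 to 3 and of -0.309 to 0.129 for other pairs. The pairing is taken from these values, since no label explains the numbers.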

Additional observations from a re-analysis of the deposited data

How the results depend on the processing

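The number of checkpoint genes lower at an unadjusted p under 0.05, 5 of 9, was 3 after centring on the kept probe sets or on the genes tested, and 4 to 7 without 1 array. At the thresholds of the study it was 3 after cyclic loess, after both centrings and on the base of e, and 4 to 5 without 1 array. At a limma adjusted p under 0.05 it was 3 with array weights (Chek1 at 0.0144, Clspn at 0.0150 and Hus1 at 0.0383, where 1154 of all genes passed) and 0 to 1 without 1 array: Clspn passed without Mef2c-deficient replicate 1 (0.0459) and Chek1 without replicate 3 (0.0453). The methods' t-test, at an unadjusted p under 0.05, gave 4 of 9 and after Benjamini-Hochberg adjustment 0. Over the alternatives run, the limma or t-test adjusted p ranged from 0.0144 to 0.340 for Chek1, from 0.0150 to 0.340 for Clspn, from 0.0383 to 0.340 for Hus1 and from 0.0680 to 0.340 for Chek2, with negative differences throughout. Rad9a turned positive after quantile normalization (0.29), cyclic loess (0.36) and centring on kept probe sets (0.10) or genes tested (0.27). The median of all genes turned positive with no filter (0.073) and centred on the genes tested (0.10). The number of all genes lower at an unadjusted p under 0.05, 2353, ranged from 730 (centred on the genes tested) to 2940 (array weights), and that higher, 600, from 239 (without control replicate 1) to 2278 (centred on the genes tested). Without 1 array, 0 to 159 genes passed an adjusted p of 0.05, the most without Mef2c-deficient replicate 3.

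Among lists, the count lower at an unadjusted p under 0.05 changed as follows. S-phase partners gave 7 centred on the genes tested, in place of 12. Break partners gave 3 after quantile normalization, cyclic loess or centring on the genes tested, in place of 7. Checkpoint targets gave 6 after quantile normalization or either centring, 5 after cyclic loess and 7 with the methods' t-test, in place of 11, and 6 to 14 without 1 array. PIKK kinases and assembly factors gave 2 after quantile normalization, 1 after cyclic loess or centring on the genes tested, 3 centred on the kept probe sets, in place of 5, and 3 to 5 without 1 array. Proliferation genes gave 12 centred on the genes tested, in place of 19. The cause of these changes was not tested.

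When replicate number was added as a block, the count of checkpoint genes at an unadjusted p under 0.05 was 5 again, 0 passed adjustment, and the list counts moved by 0 to 2. The block took the genes past adjustment among all genes from 2 to 0 and changed no other call on the 9 genes. The paired exact test of Chek1 minus Chek2 (-1.52) and of Atr minus Atm (-0.88) gave p = 0.25 each, the smallest that 3 pairs allow. Both pairs stayed negative in all alternatives run. The number of arrays limits the precision, and no detection calls were used for dim probe sets.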
